A study of Mus musculus with 29 samples.

Results

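Genes of the extracellular matrix were followed in mouse lung: collagens, laminins and other basement membrane proteins, elastic fibre proteins, proteases and their inhibitors, crosslinking enzymes, and matricellular proteins and proteoglycans. The set is a list of 49 gene symbols, and each gene was represented by its brightest probe. Of the 49, 45 were measured among 15348 genes tested, and no probe was matched to Lama3, Lamc1, Col6a3 or Lox. The 45 fall into 6 fibrillar collagens, 15 basement membrane genes, 5 other collagens, 5 elastic fibre and fibronectin genes, 6 proteases and inhibitors, 1 crosslinking enzyme and 7 matricellular and proteoglycan genes.

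RNA of whole lung was measured on 29 single-colour arrays. The mice were C57BL/6, 6 to 8 weeks old, either wild type (WT) or Klf15 knockout (KO), and were given saline or 2.5 mg/kg of the synthetic glucocorticoid dexamethasone for 4 or 8 h. At 4 h there were 4 wild-type saline, 4 wild-type dexamethasone, 3 knockout saline and 4 knockout dexamethasone arrays. At 8 h there were 3, 3, 4 and 4 arrays in the same order. The knockout is named in the labels with no promoter or cell type that would limit it, and Klf15 is a transcription factor that the glucocorticoid receptor is known to induce. By its title, the series asks how the receptor and Klf15 together regulate the course of gene expression.

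The matrix of the lung has an interstitial part, built by fibroblasts around fibrillar collagens and elastin, and sheet-like basement membranes under epithelium and endothelium, built from collagen IV, laminins, nidogen and perlecan. Its turnover is set by metalloproteinases and by their inhibitors, the TIMPs, while lysyl oxidases crosslink collagen and elastin. Glucocorticoids are known to lower collagen synthesis in fibroblasts and to act on lung growth and repair.

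A level below is the log2 of a probe's signal minus the array's own 75th percentile, so that 0 is the brightness of the probe at that percentile, and levels of different genes cannot be compared. A difference is between the means of 2 groups on that log2 scale, given with its standard error (SE). A gene is called higher or lower, or said to rise or fall, when its adjusted p in limma is under 0.05 over all genes tested. The labels call the samples biologic replicates, and the p-values measure the spread between them. Where groups are said not to overlap, this describes the arrays of genes that were mostly named because they were called. It adds no test, and the share of all genes without overlap was not counted. In whole tissue, fewer cells of a type and less RNA per cell cannot be told apart.

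The Klf15 probe read between -0.89 and 1.37 on knockout arrays and between 1.95 and 4.29 on wild-type arrays, with no overlap, and the sources used here do not say whether this probe lies in the deleted part. Among the 45 genes, 44 were well above background on all arrays that measured them, the exception being Lama1, and Timp3 and Sparc lacked a value on wild-type saline 4 h replicate 33. On the 7 knockout saline arrays, a gene's brighter probe stood lower against its dimmer probe than elsewhere (mean log2 ratio of -0.37 to -0.12 over 2546 genes, against -0.08 to 0.29 on the other 22 arrays). Every comparison that uses those groups touches this shift, and the part it plays is given only through a fit with that ratio as a covariate. The ratio does not overlap between those arrays and the others. A call lost or kept in that fit therefore cannot tell the shift from a difference of the groups themselves. Knockout dexamethasone 8 h replicate 61 read above its group's mean in 40 of 45 matrix genes, against 13, 8 and 15 for replicates 62, 63 and 64. Its mean deviation was 0.55 in the fibrillar collagens and 0.55 in the elastic fibre and fibronectin genes, so results that rest on it are given with and without it. In the other 8 h dexamethasone group, wild-type replicate 54 deviated by -0.27 and replicate 55 by 0.29 in the fibrillar collagens.

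Dexamethasone moved matrix genes in both directions. The basement membrane genes Col4a1, Col4a2 and Nid1 and the inhibitor gene Timp3 rose, and the lysyl oxidase gene Loxl1 fell, in both genotypes at both times. The counts of falls below include the laminin gene Lama1 in each comparison, although it passed the filter on dim probes only through the 4 saline groups, where it was high. In wild-type lung, 8 of the 45 genes rose and 7 fell at 4 h, where 36.6% of all genes were called, 14.4% higher and 22.2% lower. At 8 h 4 rose and 12 fell (23.5% of all genes, 9.22% higher and 14.3% lower). In knockout lung, 12 rose and 5 fell at 4 h (42.5% of all genes, 24.7% higher and 17.8% lower). There, 9 rose and 7 fell at 8 h (42.6% of all genes, 24.9% higher and 17.7% lower). The median difference over the 45 genes was -0.03, -0.27, 0.16 and -0.02 in that order, beside -0.03, -0.06, 0.05 and 0.10 over all genes. In the wild type at 8 h the members' share of calls was above that of all genes, and in the other 3 comparisons the members' share of calls was below that of all genes. Beside these changes, of 11 fibroblast markers 1 rose and 4 fell, 2 and 3, 2 and 3, and 3 and 4 in the same order, and of 10 endothelial markers 2 rose and 7 fell, 1 and 5, 2 and 6, and 2 and 6. All 5 B cell markers fell in each comparison, and the part of cell makeup in the matrix results was not tested. In the knockout at 4 h the split was 7 to 5 with quantile normalization, 6 to 5 with background correction by normexp followed by quantile normalization, and 6 to 5 in the authors' deposited values, and 5 rose and 3 fell with the bright to dim ratio as a covariate. Over all genes, 3014 rose and 2994 fell, 2731 and 2959, 2724 and 2951, and 2467 and 1890 in that order.

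**Figure D1:**
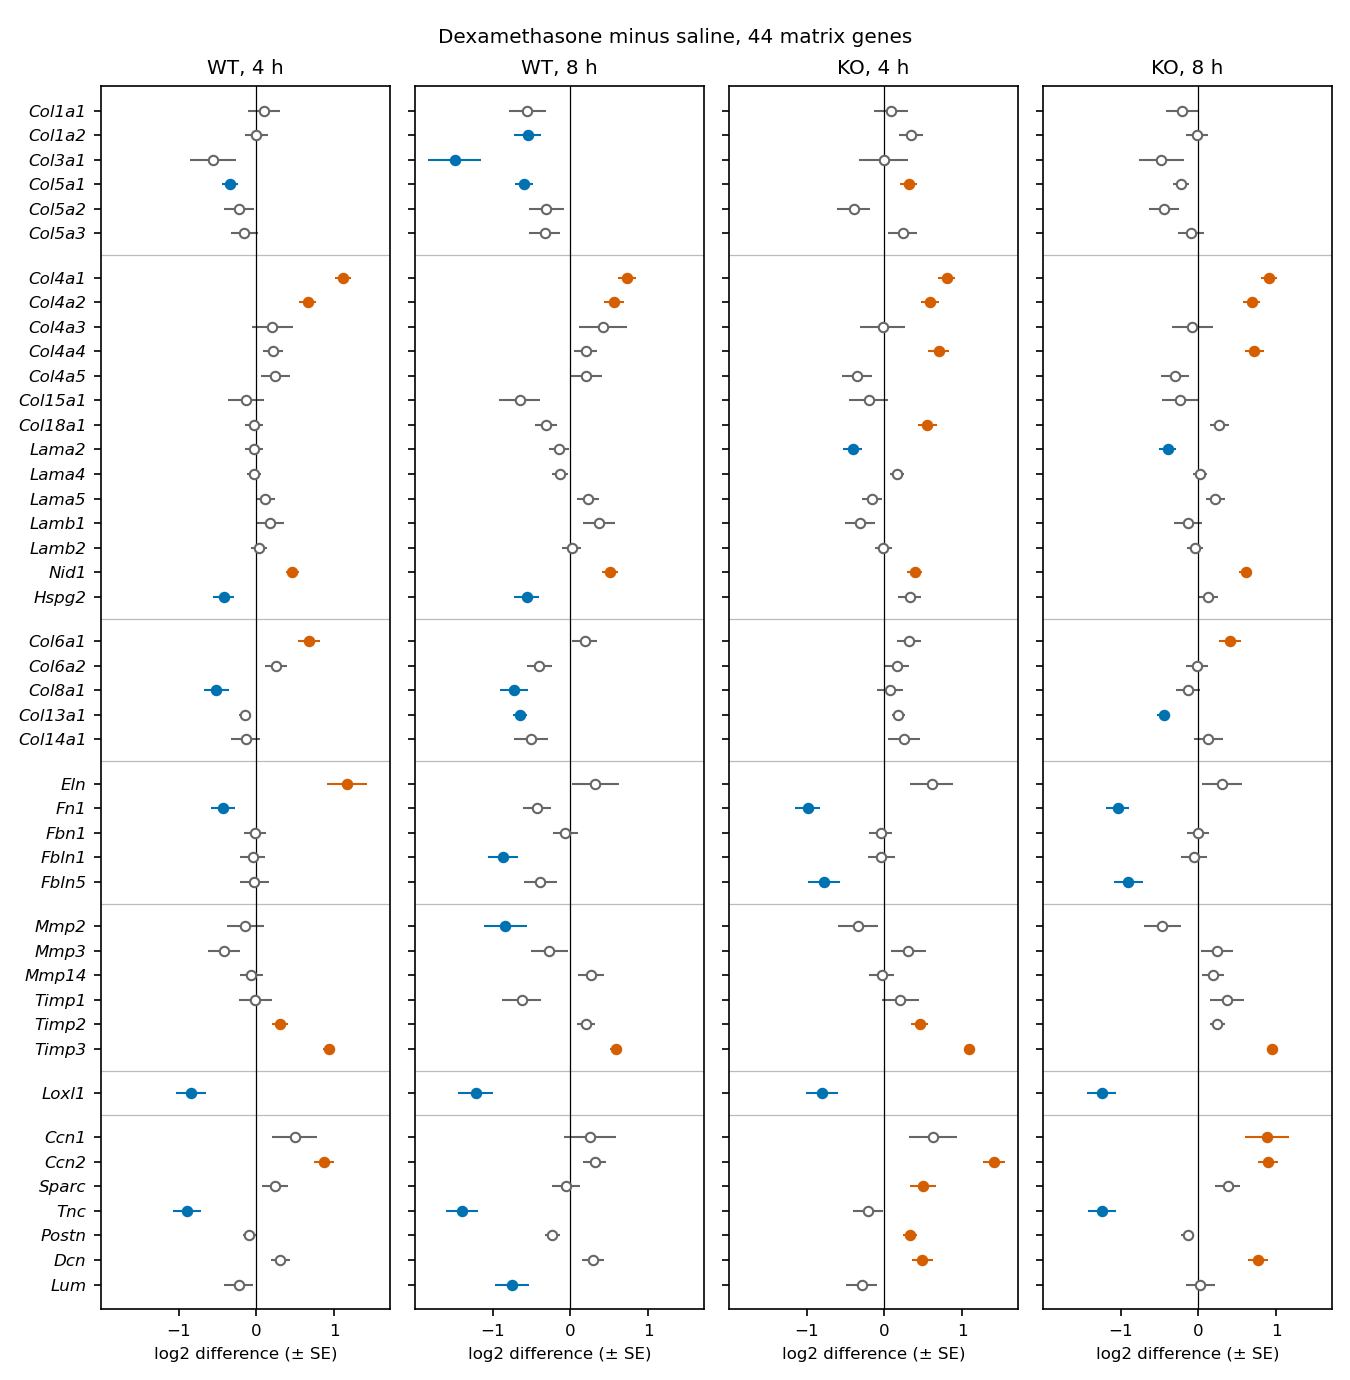
Differences between dexamethasone and saline for 44 matrix genes (rows, grouped by role from fibrillar collagens at the top to matricellular genes and proteoglycans at the bottom; Lama1, below background under dexamethasone, is not drawn), on a log2 axis with SE as bars, in wild type (WT) and knockout (KO) at 4 and 8 h. Filled orange points are called higher, filled blue points called lower and open points are not called; Col4a1, Col4a2, Nid1 and Timp3 are orange and Loxl1 is blue in all 4 panels.

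The fibrillar collagens form the tension-bearing fibres of the interstitium. At 8 h of dexamethasone all 6 were below saline in the wild type, and 3 fell. Col3a1, which encodes the chain of type III collagen, stood at 3.64, 3.91 and 3.70 on the wild-type saline arrays at 8 h and at 1.59, 2.75 and 2.44 on the dexamethasone arrays. All 3 dexamethasone arrays were below all saline arrays, and replicate 54 was the lowest. Col3a1 fell by 1.49 ± 0.34 (SE; adjusted p = 0.00228), and by 1.16 to 1.73 with any 1 array left out.

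Col1a2, the second chain of type I collagen, read 4.36, 4.59 and 4.33 on those saline arrays and 3.76, 4.05 and 3.82 under dexamethasone. The groups did not overlap, and the fall was 0.55 ± 0.17 (SE; adjusted p = 0.0193). Col5a1, a chain of type V collagen, which nucleates fibrils, went from 0.44, 0.58 and 0.39 to -0.20, 0.03 and -0.21, a fall of 0.60 ± 0.11 (SE; adjusted p = 0.000455). The other 3 fibrillar genes, Col1a1, Col5a2 and Col5a3, differed by -0.56, -0.31 and -0.33 and were not called. A dimmer Col1a1 probe differed by -1.09.

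At 4 h the same wild-type comparison called 1 fibrillar gene. Col5a1 went from 1.12, 0.90, 0.83 and 0.81 on saline to 0.41, 0.75, 0.55 and 0.59 on dexamethasone, a fall of 0.34 ± 0.10 (SE; adjusted p = 0.00854). In the knockout, Col5a1 stood at 0.24, 0.49 and 0.45 on saline and at 0.88, 0.72, 0.70 and 0.52 on dexamethasone, and there it rose by 0.31 ± 0.11 (SE; adjusted p = 0.0217). The dexamethasone arrays thus lay below the saline arrays in the wild type and above them in the knockout. The knockout saline level was itself lower than the wild-type one, by 0.52 ± 0.11 (SE; adjusted p = 0.00179).

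The difference of the Col5a1 effects between genotypes at 4 h was 0.65 ± 0.15 (SE; adjusted p = 0.00792). This rests on 1 probe. A second, dimmer Col5a1 probe differed between dexamethasone and saline at 4 h by 0.49 in the wild type and -0.04 in the knockout. It gave a difference of effects of -0.53 and a saline difference of 0.54, both of the opposite sign. With the bright to dim ratio as a covariate neither was called.

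In the knockout at 8 h all 6 fibrillar genes were again below saline, by 0.02 to 0.48, and limma called 0 of them (2 at an unadjusted p under 0.05). This count rests on replicate 61, and it holds for the brightest probes. Both dimmer Col1a1 probes differed by -0.84 and the second Col3a1 probe by -0.79. The second probes of Col5a1 and Col5a3 differed by 0.25 and 0.90. Col3a1 read 3.90, 3.72, 3.74 and 3.99 on saline, and 3.08, 2.78 and 3.1 on replicates 62 to 64, but 4.48 on replicate 61, which was above all saline arrays. Without that array Col3a1 fell by 0.85 ± 0.25 (SE; adjusted p = 0.00739), Col5a2 by 0.67 ± 0.17 (SE; adjusted p = 0.00288) and Col5a1 by 0.30 ± 0.10 (SE; adjusted p = 0.0217). Over the 45 genes, 8 rose and 11 fell without it, where 42.8% of all genes were called. Of these member calls, 15 were shared with the fit that holds it.

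Among the 15 basement membrane genes, 3 rose and 2 fell in the wild type at each time, and in the knockout 5 rose and 2 fell at 4 h and 4 rose and 2 fell at 8 h. Each of these counts of falls includes Lama1, which passed the filter only through the saline groups, where it was high. Col4a1 and Col4a2 encode the chains of the ubiquitous collagen IV network. Col4a1 read 3.94, 4.15, 4.12 and 3.77 on wild-type saline arrays at 4 h, and 5.08, 5.04, 5.21 and 5.11 on dexamethasone arrays. The 8 h arrays read 3.82, 4.02 and 3.79 on saline and 4.60, 4.76 and 4.47 on dexamethasone. Every dexamethasone array was above every saline array at both times.

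In the knockout, Col4a1 read 4.20, 4.16 and 4.17 on saline and 4.95, 4.88, 5.10 and 4.98 on dexamethasone at 4 h. At 8 h it read 4.26, 4.27, 4.06 and 4.18 on saline and 5.46, 5.03, 4.90 and 5.0 on dexamethasone. The groups were again apart. Col4a1 rose by 1.11 ± 0.10 in the wild type at 4 h (SE; adjusted p = 6.28e-09), by 0.73 ± 0.12 at 8 h (5.83e-05), by 0.80 ± 0.11 in the knockout at 4 h (2.66e-06) and by 0.91 ± 0.10 at 8 h (2.03e-07).

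Col4a2 rose by 0.66 ± 0.11, 0.56 ± 0.13, 0.59 ± 0.12 and 0.68 ± 0.11 in the same order (SE; largest adjusted p = 0.00193). On saline it lay between 3.56 and 4.08 over both genotypes and times, and on dexamethasone between 4.13 and 4.95. A second probe of each gene moved the same way, by 0.49 to 0.82 for Col4a1 and by 0.40 to 0.68 for Col4a2, although for Col4a1 in the wild type at 8 h the second probe missed the threshold (adjusted p = 0.0693). Nid1 encodes nidogen, which links the laminin and collagen IV networks. It lay between 2.27 and 2.61 on all saline arrays and between 2.62 and 3.15 on all dexamethasone arrays, so that the treatments did not overlap in any array. It rose by 0.46 ± 0.09, 0.51 ± 0.10, 0.39 ± 0.09 and 0.61 ± 0.09 (SE; largest adjusted p = 0.0016). The calls of Nid1 and Col4a2 in the knockout at 4 h were lost with normexp and in the deposited values, where the smallest rises were 0.19 and 0.29, and that of Nid1 also with quantile normalization (0.20).

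**Figure D2:**
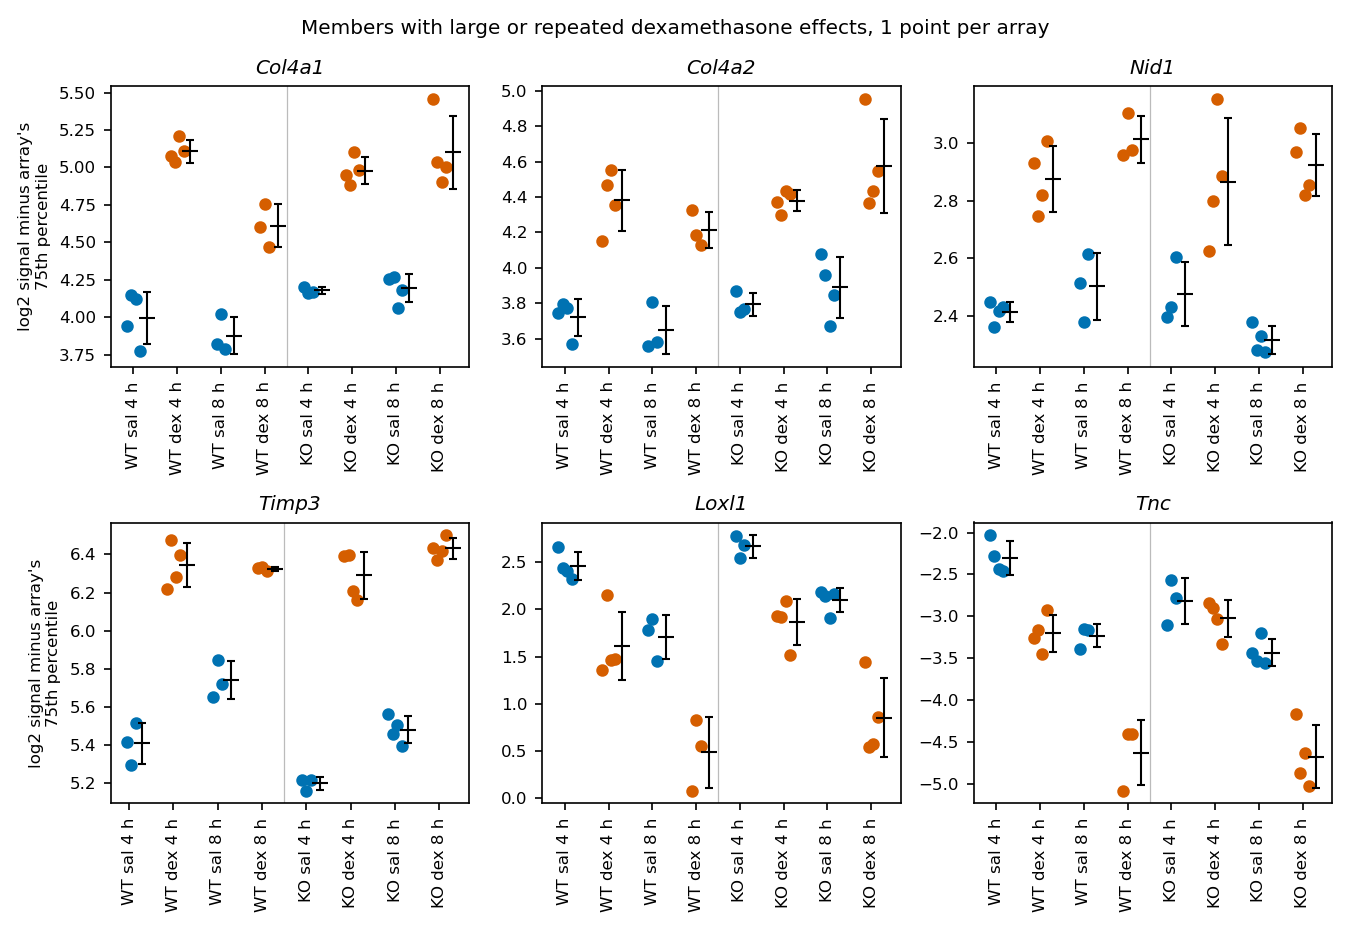
Levels (log2 signal minus the array's 75th percentile) of Col4a1, Col4a2, Nid1, Timp3, Loxl1 and Tnc on each array, by genotype (WT, KO), treatment (sal, saline, blue; dex, dexamethasone, orange) and time, with the group mean and SD as a bar beside the points. The dexamethasone points of Col4a1, Col4a2, Nid1 and Timp3 lie above those of the matched saline group and those of Loxl1 below, while Tnc is lower in 3 of 4 pairs and overlaps in the knockout at 4 h.

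Col4a1 and Col4a2 are neighbours read in opposite directions, and in RefSeq (GRCm38.p6) their first bases lie 21 bases apart on chromosome 8, at 11312826 on the minus strand and 11312805 on the plus strand. The sequence from one start to the other is shown because both genes of this pair rose in every dexamethasone comparison, and the promoters of Nid1 and Timp3 are shown as the other members that did so. Each promoter is the 250 bases before the start, plus strand. Capitals mark matches of CCNCNCCC, a CACCC-type motif of Krüppel-like factors, on either strand. The Col4a1 and Col4a2 stretch is not a promoter, because it runs from each start into that start's own gene. Its lack of capitals therefore says nothing about their promoters. In the promoter windows described below, CCNCNCCC was found for both Col4a1 and Col4a2.
Col4a1 and Col4a2 starts, chr8:11312805-11312826: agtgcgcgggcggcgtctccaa
Nid1 promoter, chr13:13437352-13437601: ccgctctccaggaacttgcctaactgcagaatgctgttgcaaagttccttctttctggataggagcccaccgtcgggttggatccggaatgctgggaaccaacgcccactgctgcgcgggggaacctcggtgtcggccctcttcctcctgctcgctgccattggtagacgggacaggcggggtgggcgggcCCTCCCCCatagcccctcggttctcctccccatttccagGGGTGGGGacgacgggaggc
Timp3 promoter, chr10:86300162-86300411: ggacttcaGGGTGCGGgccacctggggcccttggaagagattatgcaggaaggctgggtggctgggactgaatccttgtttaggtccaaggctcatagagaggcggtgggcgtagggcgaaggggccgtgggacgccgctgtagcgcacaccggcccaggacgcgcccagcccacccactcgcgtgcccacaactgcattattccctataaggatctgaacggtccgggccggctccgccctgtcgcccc

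Promoter windows of 300 bases (250 before and 50 after the start) were matched for 33 of the 49 genes, in 39 windows, and 16 genes had no entry. CCNCNCCC was found in 31 of 39 member windows (79.5%) and in 49.5% of all 32851 windows. The glucocorticoid receptor element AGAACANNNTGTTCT was in 0 member windows and in 0.00913% of all windows, and its shorter form AGAACA, which overlaps it, in 3 member windows (7.69%; Fbln1, Lama2 and Sparc) and in 19% of all. These matches are descriptions of letters in a window. Other members that are direct neighbours in the genome are Col3a1 and Col5a2, Col4a4 and Col4a3, Col6a2 and Col6a1, and Dcn and Lum.

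The 3 other collagen IV chains, of the specialised network of lung and kidney basement membranes, did not follow Col4a1 as a group. Col4a4 rose in the knockout, from 1.34, 1.36 and 1.43 on saline to 2.21, 2.20, 2.02 and 1.87 on dexamethasone at 4 h, by 0.70 ± 0.14 (SE; adjusted p = 0.000267). Its 8 h levels went from 1.69, 1.37, 1.44 and 1.20 to 2.16, 1.92, 2.01 and 2.49, a rise of 0.72 ± 0.13 (SE; adjusted p = 9.05e-05). The groups did not overlap, but with the bright to dim ratio as a covariate the rises were 0.27 and 0.36 and not called. In the wild type Col4a4 differed by 0.21 and 0.20, and the difference of effects between genotypes was 0.48 at 4 h (adjusted p = 0.0809) and 0.52 at 8 h (adjusted p = 0.105). Col4a3, its genomic neighbour, and Col4a5 were not called under dexamethasone in any of the 4 comparisons.

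Among laminins, which start basement membrane assembly, Lama1 was well above background on all 14 saline arrays and on none of the 15 dexamethasone arrays. Its saline levels lay between -6.48 and -4.35, near the floor of the array. Set against the dimmest probe that was well above background on each dexamethasone array, Lama1 was at least 2.84-fold lower in the wild type at 4 h and at least 1.71-fold lower at 8 h. In the knockout it was at least 6.23-fold lower at 4 h and at least 3.39-fold lower at 8 h. These bounds are a description, with no test, since the gene passed the filter only where it was high. Lama2, of muscle and mesenchymal basement membranes, fell in the knockout by 0.41 ± 0.12 at 4 h (SE; adjusted p = 0.00825) and by 0.39 ± 0.11 at 8 h (0.00631), where the groups overlapped through replicate 61. The 4 h call was lost without saline replicate 44, at -0.35 (adjusted p = 0.0506), and with the covariate, at -0.28. Lama4, Lama5, Lamb1 and Lamb2 were not called in any dexamethasone effect and differed by -0.31 to 0.37.

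Hspg2 encodes perlecan, a large heparan sulfate proteoglycan, and went the other way from Col4a1 and Col4a2 in the wild type. It read 3.90, 3.88, 3.82 and 3.86 on saline and 3.14, 3.74, 3.51 and 3.38 on dexamethasone at 4 h, a fall of 0.42 ± 0.13 (SE; adjusted p = 0.0157). At 8 h it fell from 3.40, 3.80 and 3.46 to 3.04, 3.03 and 2.90, by 0.57 ± 0.16 (SE; adjusted p = 0.00978). The groups were apart at both times, though at 4 h the call was lost without dexamethasone replicate 49, at -0.32. Col18a1, whose collagen carries the endostatin fragment, rose in the knockout at 4 h by 0.55 ± 0.13 (SE; adjusted p = 0.00112), from 1.11, 0.90 and 0.97 to 1.75, 1.72, 1.35 and 1.36. That rise was 0.08 with its second probe and was not called with the covariate. Col15a1 was not called.

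Of the 5 other collagens, 1 rose and 1 fell in the wild type at 4 h, 2 fell at 8 h, and in the knockout limma called 0 at 4 h (0 at an unadjusted p under 0.05) and 1 each way at 8 h. Col6a1, a chain of the beaded microfibrils of collagen VI, rose in the wild type at 4 h from 2.61, 2.54, 2.53 and 2.37 to 2.82, 3.43, 3.23 and 3.26, by 0.67 ± 0.14 (SE; adjusted p = 0.000651). Its knockout rise at 8 h of 0.41 ± 0.14 (SE; adjusted p = 0.0257) was 0.20 and not called without replicate 61. Col6a2, which lies beside it in the genome, was not called in any dexamethasone effect, at 0.25, -0.40, 0.16 and -0.02.

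Col13a1 encodes a transmembrane collagen. In the wild type it fell at 8 h from 1.63, 1.69 and 1.53 to 1.10, 0.88 and 0.90, by 0.65 ± 0.09 (SE; adjusted p = 1.62e-05). In the knockout it fell from 1.46, 1.42, 1.45 and 1.27 to 0.96, 0.92, 0.87 and 1.06, by 0.45 ± 0.08 (SE; adjusted p = 9.1e-05). The groups did not overlap in either genotype. At 4 h the differences were -0.15 and 0.18, and the effect differed between times by -0.50 ± 0.12 in the wild type (SE; adjusted p = 0.013) and by -0.63 ± 0.12 in the knockout (0.00346). Neither was called with the mean of its probes or with its dimmest probe, which gave -0.20 in the wild type, where the call was also lost with median scaling. Col8a1, a short-chain collagen of vessel walls, fell in the wild type by 0.52 ± 0.16 at 4 h (SE; adjusted p = 0.0123), where the groups overlapped, and by 0.73 ± 0.18 at 8 h (0.00497). The 4 h call was lost without dexamethasone replicate 49, at -0.41 (adjusted p = 0.0584), with slide as a fixed block, at -0.42, and with its dimmest probe. Col14a1 was not called.

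Elastin (Eln), the core of elastic fibres, rose in the wild type at 4 h, from 0.40, 0.01, -0.16 and -0.12 to 1.15, 1.5, 1.09 and 1.06, by 1.17 ± 0.26 (SE; adjusted p = 0.000857). All 4 dexamethasone arrays were above all saline arrays. At 8 h in the wild type the difference was 0.32 ± 0.30 (SE; adjusted p = 0.495), with saline at -0.11, -0.14 and -0.24 and dexamethasone at -0.04, 0.36 and 0.15. In the knockout, saline at 4 h already stood at 1.07, 0.46 and 0.76 and dexamethasone at 1.23, 1.37, 1.55 and 1.33, a difference of 0.61 (adjusted p = 0.0836). The difference of effects between genotypes, -0.56 (adjusted p = 0.336), and between times in the wild type, -0.85 (adjusted p = 0.26), were not called.

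Fibronectin (Fn1), a glycoprotein that cells bind through integrins, fell in the knockout at both times. It went from 1.07, 1.20 and 1.26 on saline to -0.04, 0.16, 0.02 and 0.59 on dexamethasone at 4 h. At 8 h it went from 1.40, 1.08, 1.27 and 1.06 to 0.71, 0.05, -0.20 and 0.10. No dexamethasone array reached a saline array, and the falls were 0.99 ± 0.16 (SE; adjusted p = 3.4e-05) and 1.04 ± 0.15 (8.06e-06).

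In the wild type Fn1 fell by 0.43 ± 0.15 at 4 h (SE; adjusted p = 0.0273), a call lost without saline replicate 33 or 35 or dexamethasone replicate 49 or 51 (-0.41 to -0.40), with slide as a fixed block and with its dimmest probe (-0.34). At 8 h the wild-type difference was -0.43 ± 0.17 (adjusted p = 0.0778). The difference of effects between genotypes missed the threshold, at -0.56 ± 0.22 for 4 h (SE; adjusted p = 0.0892) and -0.61 ± 0.23 for 8 h (0.108). Without replicate 61 the latter was -0.79 ± 0.19 (SE; adjusted p = 0.019). The dimmest of 3 Fn1 probes gave knockout falls of 0.25 and 0.15, which were not called.

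Fbln5, a fibulin needed for elastic fibre assembly, fell in the knockout by 0.78 ± 0.20 at 4 h (SE; adjusted p = 0.00308), where the groups overlapped, and by 0.91 ± 0.19 at 8 h (0.000428), where they did not. With the covariate both were lost, at -0.23 and -0.45. Fbln5 read between -6.25 and -4.49, near the floor like Lama1 on saline, though well above background on all arrays. Fbln1, a fibulin of elastic fibres and basement membranes, fell in the wild type at 8 h from 1.48, 1.40 and 1.36 to 0.07, 0.91 and 0.65, by 0.87 ± 0.19 (SE; adjusted p = 0.00157), and its knockout difference was -0.06. The difference between genotypes, 0.81 ± 0.25, missed the threshold (adjusted p = 0.0542). Fbn1, the fibrillin of microfibrils, differed by -0.07 to -0.0028 in the 4 comparisons and was not called.

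Among the 6 proteases and inhibitors, Timp3, the inhibitor that is held in the matrix, had the lowest adjusted p of the members in each of the 4 dexamethasone effects. On saline it read 5.42, 5.30 and 5.52 in the wild type at 4 h, 5.65, 5.85 and 5.72 at 8 h, and 5.22, 5.16 and 5.22 and then 5.56, 5.46, 5.51 and 5.39 in the knockout. On dexamethasone it read 6.22, 6.48, 6.28 and 6.40, then 6.33, 6.33 and 6.31 in the wild type, and 6.39, 6.40, 6.21 and 6.16, then 6.44, 6.37, 6.42 and 6.50 in the knockout. All 15 dexamethasone arrays exceeded all 13 saline arrays with a value, and the 8 h dexamethasone arrays of both genotypes lay between 6.31 and 6.50.

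Timp3 rose by 0.93 ± 0.07 in the wild type at 4 h (SE; adjusted p = 9.5e-10; 1 saline value missing) and by 0.58 ± 0.08 at 8 h (8.94e-06). In the knockout it rose by 1.09 ± 0.07 (8.27e-11) and 0.95 ± 0.07 (3.19e-10). The rise was larger in the knockout at 8 h by 0.37 ± 0.10 (SE; adjusted p = 0.0382), on a knockout saline level that was lower by 0.26 ± 0.07 (adjusted p = 0.0222). That difference of effects was not called with quantile normalization, with normexp, in the deposited values, with median scaling or with the covariate, where it ranged from 0.11 to 0.43. Timp2, an inhibitor that also takes part in Mmp2 activation, rose at 4 h by 0.30 ± 0.10 in the wild type (SE; adjusted p = 0.0193; overlapping groups) and by 0.45 ± 0.11 in the knockout (0.00151). Timp1 was not called in any dexamethasone effect.

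Mmp2, the gelatinase of fibroblasts, fell in the wild type at 8 h from 0.69, 0.66 and 0.50 to -0.60, 0.04 and -0.12, by 0.84 ± 0.28 (SE; adjusted p = 0.0297). The groups did not overlap, but the call was lost without saline replicate 37 or 38 (-0.81 and -0.82) or dexamethasone replicate 54 (-0.65), and with slide as a fixed block. Knockout Mmp2 at 8 h read 1.62, 0.97, 1.46 and 1.62 on saline and 1.93, 0.79, 0.40 and 0.67 on dexamethasone, a difference of -0.47 ± 0.24 (adjusted p = 0.123). Replicate 61 was the highest of those 8 arrays, and without it Mmp2 fell by 0.79 ± 0.19 (SE; adjusted p = 0.00178). Mmp3 and Mmp14 were not called under dexamethasone.

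Loxl1, a lysyl oxidase that acts on elastin, was the crosslinking member measured. It read 2.66, 2.44, 2.40 and 2.32 on wild-type saline arrays at 4 h and 1.36, 2.15, 1.47 and 1.48 on dexamethasone arrays. The 8 h levels were 1.78, 1.90 and 1.45 on saline and 0.08, 0.83 and 0.55 on dexamethasone. The treatments did not overlap at either time, and 8 h arrays were below 4 h arrays in both treatments.

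In the knockout Loxl1 went from 2.78, 2.54 and 2.68 to 1.93, 1.92, 2.09 and 1.52 at 4 h, and from 2.18, 2.15, 1.91 and 2.17 to 1.44, 0.54, 0.57 and 0.86 at 8 h. These groups were apart too. Loxl1 fell by 0.84 ± 0.19 (SE; adjusted p = 0.0012) and 1.22 ± 0.22 (0.000264) in the wild type and by 0.80 ± 0.21 (0.00304) and 1.25 ± 0.19 (1.64e-05) in the knockout. Eln and Loxl1 thus moved in opposite directions in the wild type at 4 h.

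Of the 7 matricellular and proteoglycan genes, 1 rose and 1 fell in the wild type at 4 h and 2 fell at 8 h, while in the knockout 4 rose at 4 h, and 3 rose and 1 fell at 8 h. Ccn2, connective tissue growth factor, read 4.54, 4.45, 4.41 and 4.89 on wild-type saline and 5.16, 5.65, 5.29 and 5.69 on dexamethasone at 4 h. Knockout levels at 4 h were 4.04, 4.30 and 4.32 on saline and 5.45, 5.66, 5.89 and 5.52 on dexamethasone. Both dexamethasone groups were above their saline groups, and the rises were 0.87 ± 0.13 (SE; adjusted p = 8.82e-06) and 1.41 ± 0.14 (2.58e-08). At 8 h Ccn2 rose by 0.90 ± 0.13 in the knockout (SE; adjusted p = 6.76e-06), and in the wild type, where saline itself stood at 5.03, 5.31 and 5.10, the difference was 0.32 (adjusted p = 0.131). The difference of effects between genotypes was 0.54 at 4 h (adjusted p = 0.0523) and 0.58 at 8 h (adjusted p = 0.076).

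Ccn1, of the same family, rose in the knockout at 8 h by 0.88 ± 0.29 (SE; adjusted p = 0.0167), a call lost without saline replicate 48 (0.66) or dexamethasone replicate 62 (0.78), and with quantile normalization, normexp, the deposited values or the covariate (0.68 to 0.96). Decorin (Dcn), a small proteoglycan that binds collagen fibrils, rose in the knockout by 0.49 ± 0.13 at 4 h (SE; adjusted p = 0.00527). At 8 h it went from 4.22, 4.23, 4.27 and 4.55 to 5.26, 5.11, 5.06 and 4.89, by 0.77 ± 0.12 (SE; adjusted p = 3.19e-05), with no overlap. Its genomic neighbour lumican (Lum), of the same proteoglycan family, fell in the wild type at 8 h by 0.76 ± 0.22 (SE; adjusted p = 0.0126) and differed by 0.02 in the knockout. Sparc, a collagen-binding glycoprotein, and Postn, periostin, rose in the knockout at 4 h by 0.50 ± 0.17 (SE; adjusted p = 0.0212) and 0.33 ± 0.09 (0.00526).

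Tenascin C (Tnc), a glycoprotein of injured and growing tissue, fell in 3 of the 4 comparisons. In the wild type it went from -2.03, -2.28, -2.44 and -2.46 to -3.26, -3.17, -3.45 and -2.92 at 4 h, and from -3.39, -3.15 and -3.16 to -5.08, -4.40 and -4.40 at 8 h. In the knockout at 8 h it went from -3.44, -3.54, -3.21 and -3.56 to -4.17, -4.87, -4.64 and -5.03. All 3 pairs of groups were apart, with falls of 0.90 ± 0.18 (SE; adjusted p = 0.000311), 1.39 ± 0.21 (2.71e-05) and 1.24 ± 0.18 (6.92e-06). In the knockout at 4 h the groups overlapped, at -3.1, -2.57 and -2.78 against -2.84, -2.90, -3.03 and -3.33, and the difference was -0.21 ± 0.19 (adjusted p = 0.418). In the knockout the effect differed between 8 and 4 h by -1.03 ± 0.26 (SE; adjusted p = 0.0297), and the difference between genotypes at 4 h, 0.69 ± 0.26, missed the threshold (adjusted p = 0.0754). The first of these was not called with quantile normalization (-1.05), normexp (-0.57) or in the deposited values (-0.83).

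Time under saline alone moved some of the same genes. Averaged over genotypes, Ccn2 rose by 0.61 ± 0.10 (SE; adjusted p = 0.00054) and Timp3 by 0.31 ± 0.05 (0.00121) from 4 to 8 h. Tnc fell by 0.77 ± 0.14 (0.0013), Loxl1 by 0.66 ± 0.15 (0.0118), Col5a3 by 0.57 ± 0.13 (0.0154), Col5a1 by 0.33 ± 0.08 (0.0127) and Col13a1 by 0.31 ± 0.06 (0.00392). That made 2 rises and 5 falls among the 45 genes, where 3.21% of all genes were called, 2.04% higher and 1.17% lower. Effects of dexamethasone were therefore read against saline of the same time. The effect differed between times for 1 member in the wild type, Col13a1, where 5.96% of all genes were called (2.84% higher and 3.11% lower). In the knockout it differed for 4, Col13a1, Tnc, Postn and Col5a1, where 3.06% were called (1.21% higher and 1.84% lower), and all 5 differences were below 0. Col5a1 and Postn were lost with quantile normalization, normexp, the deposited values, the covariate or median scaling, and Postn without replicate 61 (-0.40, adjusted p = 0.0789).

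Under dexamethasone few matrix genes differed between knockout and wild type. At 4 h of dexamethasone limma called 0 of the 45 genes between genotypes, with 7 at an unadjusted p under 0.05 and 1, lower in the knockout, with slide as a block (0.899% of all genes were called, 0.28% higher and 0.619% lower). Leaving out Lama1, which was below background in both groups, the differences ran from -0.32 to 0.58, and the median over the 45 genes was 0.04, as over all genes. At 8 h 5 of 45 were higher in the knockout and none lower, where 4.92% of all genes were called (3.02% higher and 1.9% lower), and the median was 0.21 beside 0.04 over all genes. At neither time did a slide hold dexamethasone arrays of both genotypes, so these differences lie wholly between slides. Without replicate 61, 3 remained, where 2.47% of all genes were called.

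The 5 were Col6a2, Col6a1, Col3a1, Col4a1 and the protease gene Mmp2. Col6a2 read 0.53, 0.62 and 0.46 in the wild type and 1.92, 0.99, 1.08 and 1.33 in the knockout, a difference of 0.79 ± 0.15 (SE; adjusted p = 0.00387). Mmp2 differed by 1.17 ± 0.26 (SE; adjusted p = 0.00963) and Col4a1 by 0.49 ± 0.11 (0.00957). No wild-type array overlapped a knockout array in these 3 genes, and without replicate 61 they differed by 0.59, 0.85 and 0.37 and were still called (adjusted p = 0.00655, 0.0263 and 0.033). The Mmp2 call was lost without wild-type replicate 54 (0.99, adjusted p = 0.0651) and that of Col4a1 without wild-type replicate 56 (0.42, adjusted p = 0.0594). Col4a1 was also not called with quantile normalization (0.37), with normexp (0.35), in the deposited values or with slide as a fixed block (0.46).

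Col3a1 read 1.59, 2.75 and 2.44 in the wild type and 4.48, 3.08, 2.78 and 3.1 in the knockout, a difference of 1.10 ± 0.32 (SE; adjusted p = 0.0458). Without replicate 61 it was 0.73 (adjusted p = 0.154), without wild-type replicate 54 it was 0.77 (0.206), and over the arrays left out 1 at a time the adjusted p ran from 0.0264 to 0.206. The Col3a1 call was kept in 3 of 12 alternatives, slide as a random block, the stricter filter and a trended and robust variance, and lost in the other 9, with a lowest difference of 0.56 for its dimmest probe. Col6a1 differed by 0.62 ± 0.16 (SE; adjusted p = 0.0232), and by 0.41 (0.0599) without replicate 61, 0.64 (0.071) without wild-type replicate 55 and 0.55 (0.0898) without replicate 56. It was also not called with slide as a fixed block, with normexp or in the deposited values, at 0.47 or more. The differences of the 6 fibrillar genes were 0.07 to 1.10 at 8 h and 0.09 to 0.52 at 4 h, and beyond Col3a1 none was called. Without replicate 61 those at 8 h ran from 0.0035 (Col5a1) to 0.73, and none was called. Under quantile normalization 3 of the 45 were called higher, and with slide as a fixed block 2 higher and 1 lower. Over all genes 399 were called higher and 303 lower under quantile normalization, and 171 and 223 with slide as a fixed block.

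**Figure D3:**
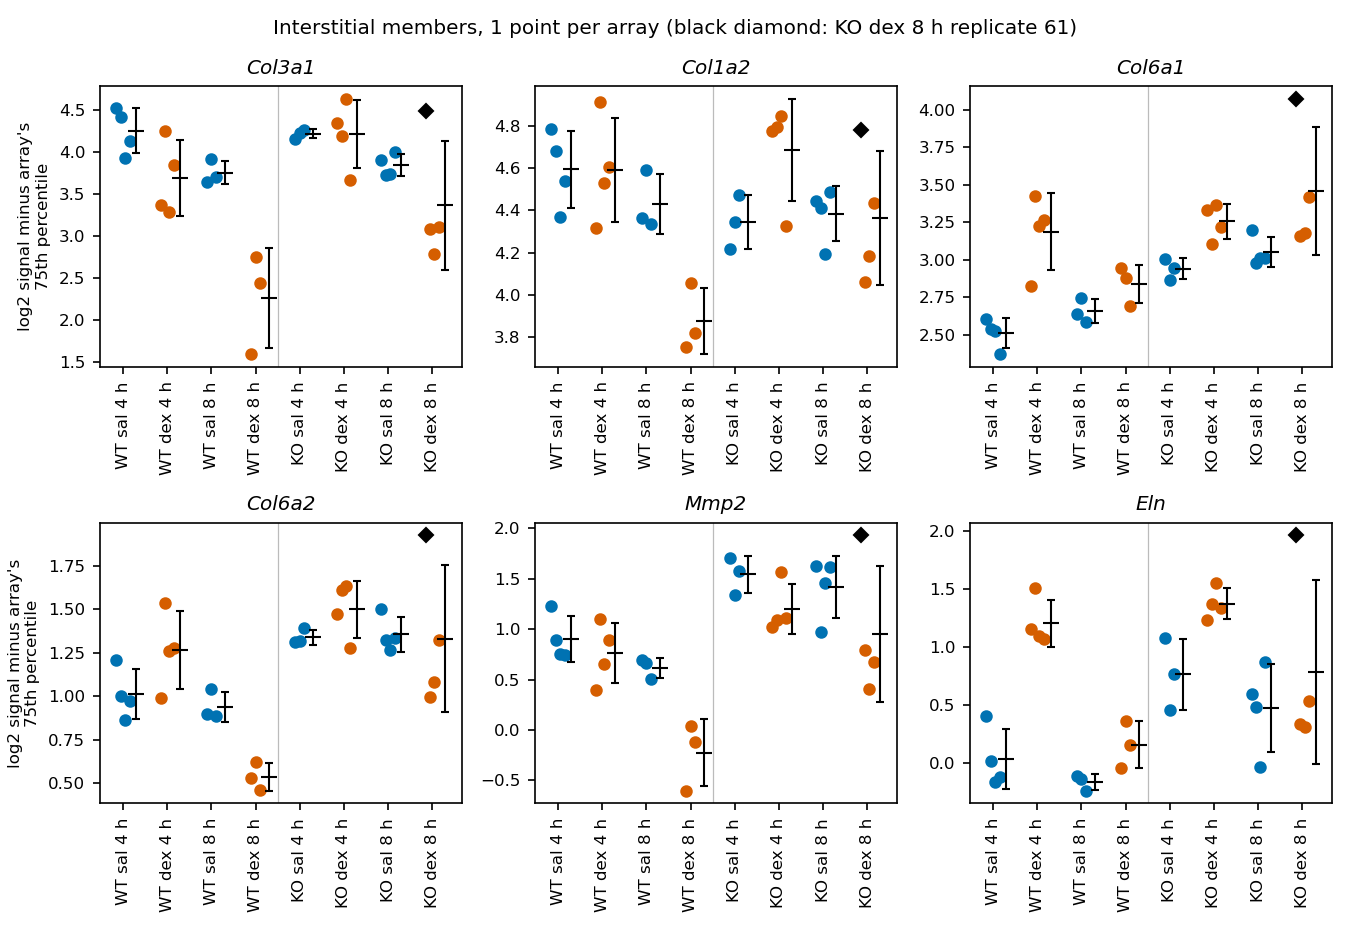
Levels (log2 signal minus the array's 75th percentile) of Col3a1, Col1a2, Col6a1, Col6a2, Mmp2 and Eln on each array, by genotype (WT, KO), treatment (sal, saline, blue; dex, dexamethasone, orange) and time, with group mean and SD as a bar; the black diamond is knockout dexamethasone 8 h replicate 61. The diamond is the highest of its group in all 6 panels, at 4.48 for Col3a1 and 1.96 for Eln, and the wild-type dexamethasone 8 h arrays are the lowest group mean for all but Col6a1 and Eln.

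Markers of other cell types were set beside this comparison. The summed level of 10 fibroblast markers was 4.74 to 5.04 on wild-type and 4.76 to 4.98 on knockout dexamethasone arrays at 8 h, with replicate 61 the highest of the latter. Of 8 smooth muscle markers, 3 were higher in the knockout and none lower, and their summed level was 5.91 to 6.05 against 5.50 to 5.68, with no overlap. Summed heart markers (6) were 4.62 to 5.92 in the knockout and 2.0 to 4.86 in the wild type, and adipocyte markers (4) 3.79 to 5.02 and 3.47 to 3.54. Replicate 61 was the lowest of its group in heart markers. The part of these markers in the result was not tested.

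On saline, the comparisons between genotypes involve the knockout arrays with the shifted bright to dim ratio. At 4 h no slide held saline arrays of both genotypes, so that difference also lies wholly between slides. At 4 h 3 of 45 genes were higher and 5 lower in the knockout, where 24.6% of all genes were called (5.98% higher and 18.6% lower), and the median was 0.02 beside -0.04. With the ratio as a covariate all 8 calls were lost, and over all genes 2 were called higher and 20 lower. The ratio did not overlap between the genotypes here, so that fit cannot tell it from genotype. The split was 6 to 5 with normexp and quantile normalization, 6 to 4 in the deposited values and 2 to 11 with median scaling. Over all genes it went from 918 to 2854 to 644 to 1023, 609 to 972 and 499 to 4133 in that order.

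Col18a1 stood at 1.95, 1.86, 1.74 and 2.01 in the wild type and at 1.11, 0.90 and 0.97 in the knockout, lower by 0.90 ± 0.13 (SE; adjusted p = 0.000138). Hspg2 stood at 3.90, 3.88, 3.82 and 3.86 against 3.18, 3.27 and 3.35, lower by 0.60 ± 0.15 (SE; adjusted p = 0.00538). Col13a1 was lower by 0.55 ± 0.09 (SE; adjusted p = 0.000316) and Mmp3, the stromelysin, by 0.72 ± 0.22 (0.0231). In these 4 genes and in Col5a1 the genotypes did not overlap. With the covariate, Col18a1 was lower by 0.57 and Hspg2 by 0.24. Fbln5, at levels near the floor, was higher by 0.81 ± 0.20 (SE; adjusted p = 0.00674), Col4a5 by 0.60 ± 0.20 (0.0281; overlapping groups) and Col6a1 by 0.43 ± 0.16 (0.0476). The Col6a1 call was lost on leaving out any of 21 of the 29 arrays, 1 at a time, with an adjusted p of up to 0.126. Beside the covariate, Fbln5 was lost with slide as a fixed block, quantile normalization, normexp or the deposited values, Mmp3 with slide as a fixed block, normexp or the deposited values, Col4a5 with either slide block, and Col13a1 with its dimmest probe.

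At 8 h of saline 2 genes were higher and 3 lower, where 13% of all genes were called (5.13% higher and 7.88% lower). Mmp2 read 0.69, 0.66 and 0.50 in the wild type and 1.62, 0.97, 1.46 and 1.62 in the knockout, higher by 0.80 ± 0.26 (SE; adjusted p = 0.0439), and Fn1 was higher by 0.51 ± 0.16 (0.0416). Col18a1 was lower by 0.59 ± 0.13 (SE; adjusted p = 0.00505), Mmp3 by 0.69 ± 0.22 (0.0428) and Timp3 by 0.26 ± 0.07 (0.0222). In each of the 5 the genotypes did not overlap, and Col18a1 was still called with the covariate, at -0.44 (adjusted p = 0.0323), but not with the mean of its probes or with its second probe, at -0.18. Of the other calls, Timp3 was lost with quantile normalization, normexp, the deposited values, the covariate or median scaling, Mmp3 with quantile normalization, the covariate or median scaling, and Fn1 with other probes, the covariate or median scaling. Mmp2 was lost with the covariate, normexp, the deposited values, median scaling, no filter on dim probes or the mean of probes, and without any 1 of 8 arrays, at 0.73 to 0.84. The count ran from 1, without wild-type replicate 39, to 10, without knockout dexamethasone replicate 61. The split was 7 to 1 with quantile normalization, 6 to 2 with normexp, 5 to 2 in the deposited values, 0 to 1 with median scaling, and 6 to 7 with slide as a fixed block. Over all genes the split was 788 to 1209 without these changes. With them it was 960 to 593, 784 to 418, 767 to 402, 490 to 731 and 1384 to 2614 in that order. A dim Fn1 probe differed by -0.60, against 0.51 for the brightest. No member was called between genotypes in all 4 settings of treatment and time.

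**Figure D4:**
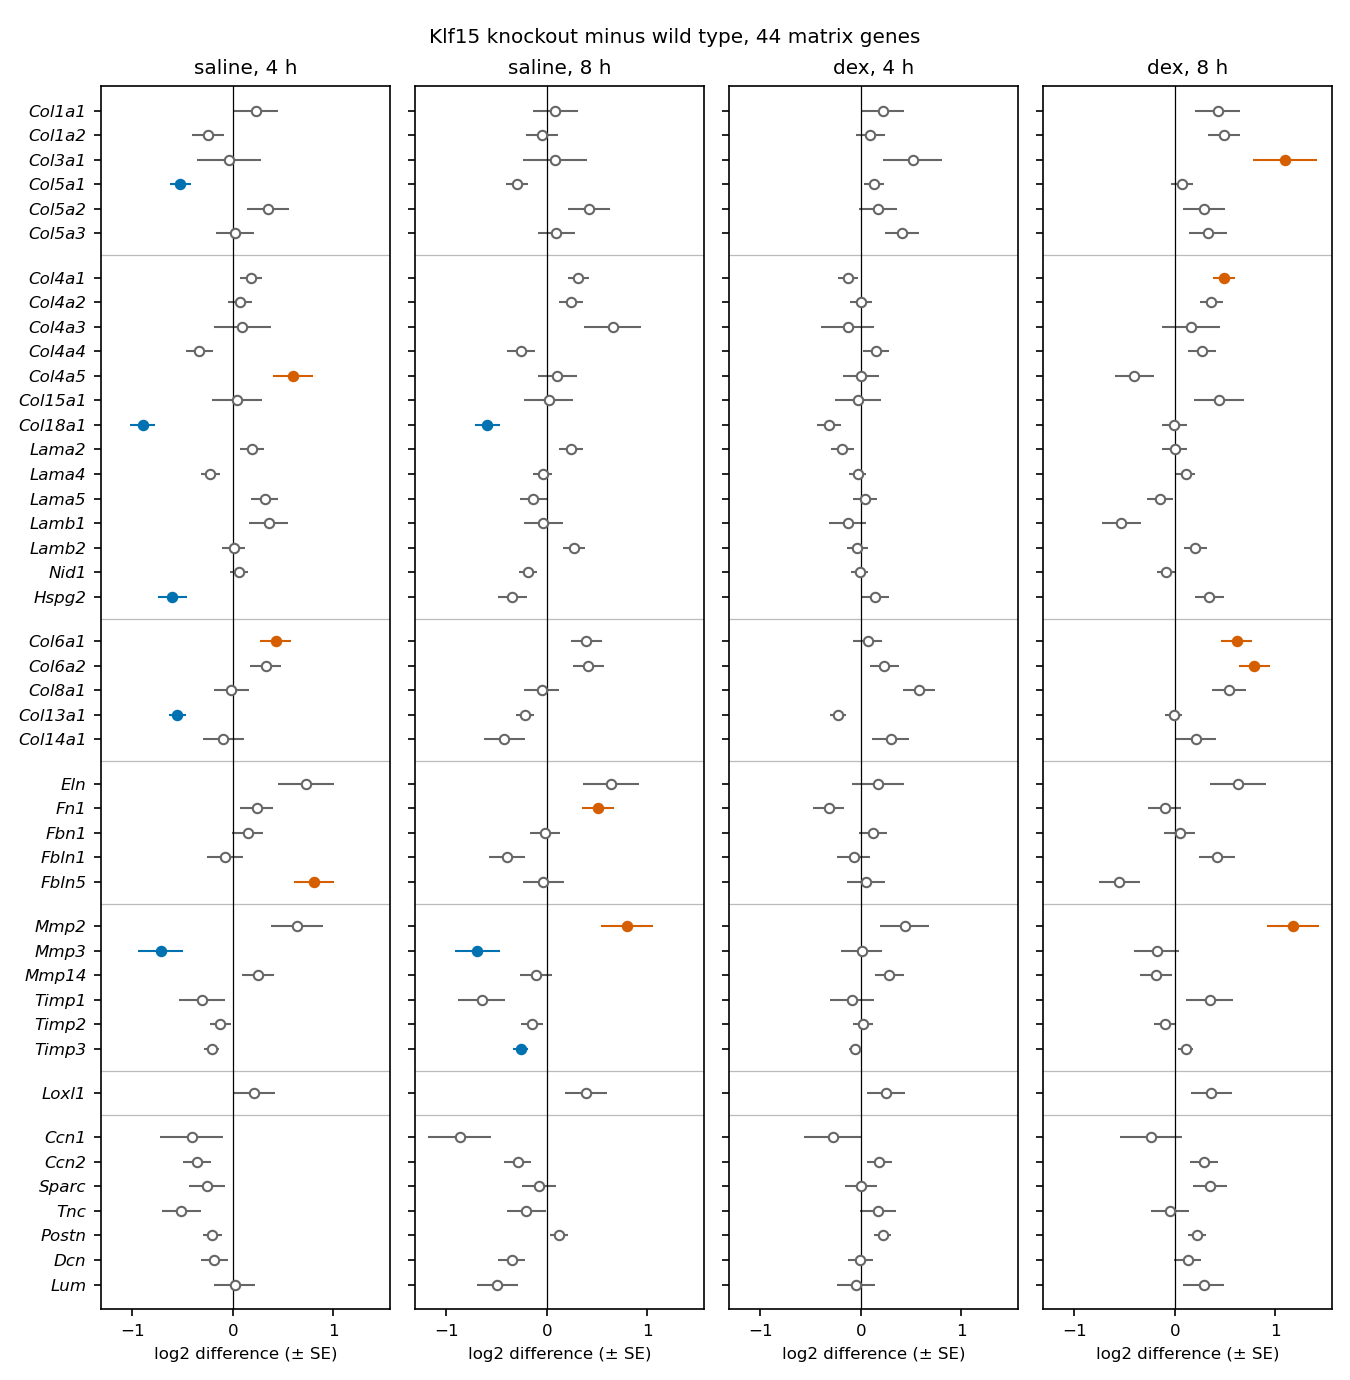
Differences between Klf15 knockout and wild type for 44 matrix genes (rows, grouped by role as fibrillar collagens, basement membrane, other collagens, elastic fibre and fibronectin, proteases and inhibitors, crosslinking, and matricellular and proteoglycan genes; Lama1 is not drawn), on a log2 axis with SE as bars, on saline and dexamethasone (dex) at 4 and 8 h. Filled orange points are called higher in the knockout, filled blue points lower and open points are not called: 3 and 5 on saline at 4 h, 2 and 3 at 8 h, none on dexamethasone at 4 h and 5 higher at 8 h.

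The genotype differences on saline and the dexamethasone effects in each genotype share their saline arrays, so a gene low in knockout saline lung also reads as a larger rise there. The difference of effects between genotypes at 4 h was above 0 for all 4 members called (16.3% of all genes, 13.2% above and 3.12% below 0): Col5a1, Hspg2, Postn and Col18a1. Hspg2 fell in the wild type and read 0.32 above saline in the knockout (adjusted p = 0.0783), a difference of effects of 0.75 ± 0.20 (SE; adjusted p = 0.016). For Col18a1 it was 0.58 ± 0.17 (SE; adjusted p = 0.0268) and for Postn 0.42 ± 0.12 (0.0257). The Col18a1 call was kept in 4 of 12 alternatives and lost with either slide block, quantile normalization, normexp, other probes, the deposited values or the covariate, down to 0.14. The Postn call was lost with slide as a fixed block, quantile normalization, normexp, the deposited values or the covariate, down to 0.10. On dexamethasone at 4 h the genotypes differed by 0.15 in Hspg2, -0.32 in Col18a1 and 0.22 in Postn, none called. With the bright to dim ratio as a covariate all 4 calls were lost, and over all genes 1 was called above and 1 below 0.

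At 8 h the difference of effects was called for Timp3 and Hspg2, both above 0 as knockout minus wild type (5.81% of all genes, 4.25% above and 1.55% below 0). Hspg2 differed by 0.69 ± 0.21 (SE; adjusted p = 0.0495), and its adjusted p ran from 0.0206 to 0.138 with 1 array left out. Its call was kept in 6 of those 29 fits and in 4 of 12 alternatives. That of Timp3 was kept in 19 of the 29 fits and in 6 of 11 alternatives. With quantile normalization, normexp, the deposited values, median scaling or the covariate both calls were lost.

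**Figure D5:**
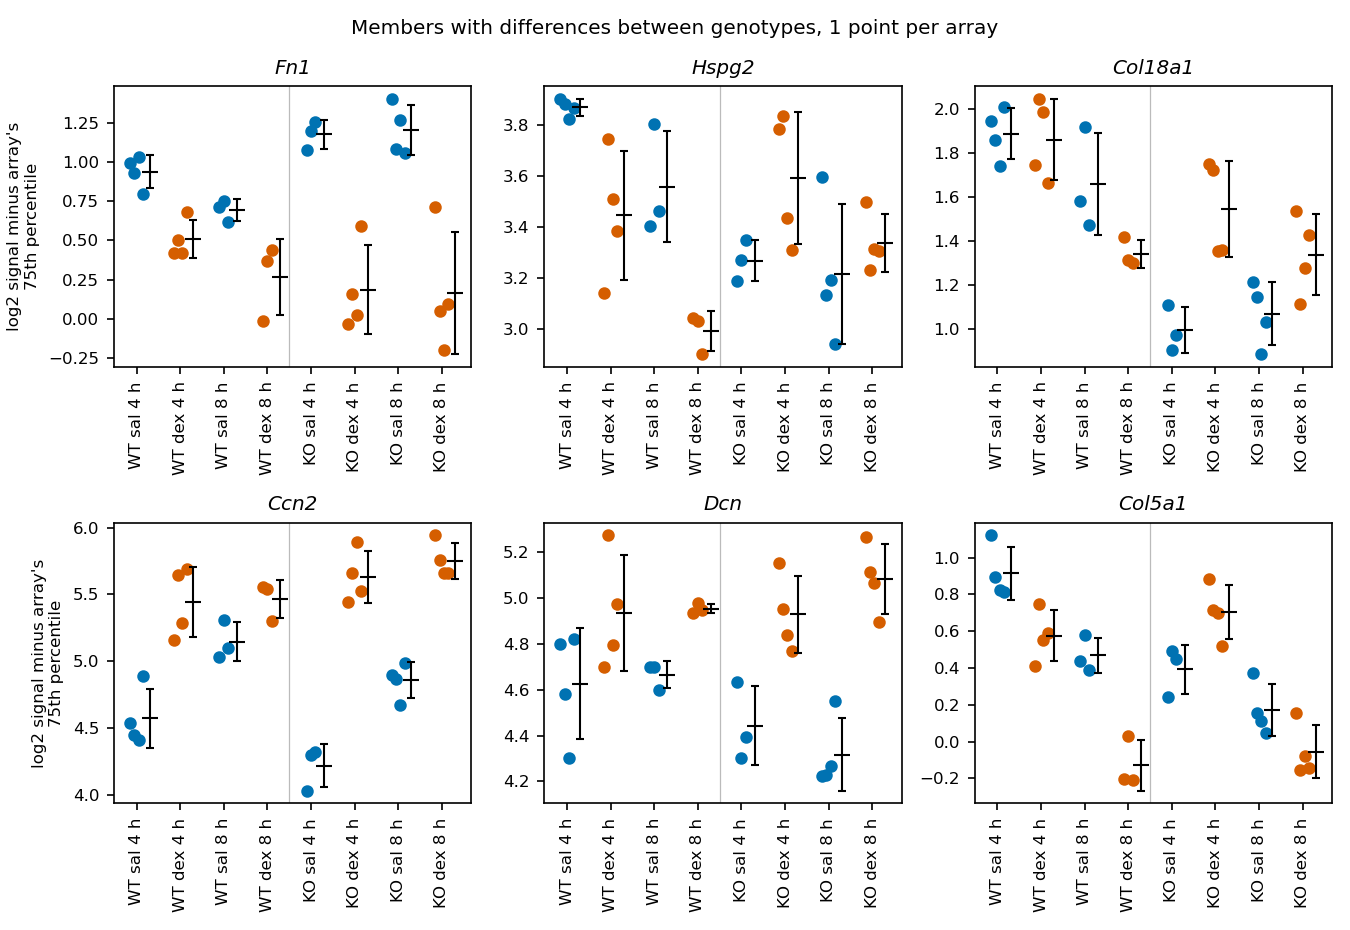
Levels (log2 signal minus the array's 75th percentile) of Fn1, Hspg2, Col18a1, Ccn2, Dcn and Col5a1 on each array, by genotype (WT, KO), treatment (sal, saline, blue; dex, dexamethasone, orange) and time, with group mean and SD as a bar. The knockout saline arrays at 4 h lie below the wild-type saline arrays for Hspg2, Col18a1 and Col5a1, while on dexamethasone at 4 h the genotypes overlap in all 6 genes.

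Other genes that make, cut, bind or signal through the matrix were counted from 5 further lists. Of all genes, 14.4% rose and 22.2% fell in the wild type at 4 h, and 9.22% and 14.3% at 8 h. In the knockout 24.7% rose and 17.8% fell at 4 h, and 24.9% and 17.7% at 8 h. The counts of each list stand beside these shares, and no list was tested as a set. Of 20 collagen processing genes, 4 rose and 1 fell in the wild type at 4 h, 2 and 5 at 8 h, 4 and 3 in the knockout at 4 h, and 4 and 6 at 8 h. Tgm2, a transglutaminase that crosslinks matrix proteins, rose by 1.19 at 4 h in the wild type and by 1.22 and 1.04 in the knockout. P4ha2, a subunit of collagen prolyl hydroxylase, rose by 0.75 (wild type, 4 h), 0.91 and 0.82 (knockout, 4 and 8 h). At 8 h in the wild type, where 3 of the 6 fibrillar collagens fell, Pcolce, an enhancer of procollagen cleavage, fell by 0.99 and Serpinh1, the collagen chaperone, by 0.68, and Serpinh1 fell by 0.71 in the knockout.

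Of 22 genes of the TGF-beta pathway, a main inducer of matrix genes, 3 rose and 7 fell, then 1 and 5, 7 and 7, and 6 and 3 in the same order. The endothelial receptor gene Acvrl1 fell by 0.65, 0.69, 1.12 and 1.37. The coreceptor gene Tgfbr3 rose by 1.08 and 0.87 in the wild type, and its saline level was 0.67 and 0.74 higher in the knockout.

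Of 25 other proteases and inhibitors, 6 rose and 10 fell, 4 and 6, 4 and 10, and 6 and 10. Mmp12, the macrophage elastase, fell by 2.70, 2.32, 3.17 and 3.60. Adamts15, an aggrecanase-type protease, rose by 1.68 in the wild type at 4 h and by 1.80 and 1.40 in the knockout. Mmp11, stromelysin 3, fell at 4 h by 2.0 and 1.77.

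Of 21 integrins and matrix receptors, 3 rose and 7 fell, 2 and 5, 4 and 7, and 3 and 9. Itga2, a subunit of a collagen receptor, fell by 0.76, 1.0 and 0.82 in the wild type at 4 h and the knockout at 4 and 8 h, and the dystroglycan gene Dag1, a laminin receptor, rose by 0.94 in the wild type at 4 h. Of 35 other matrix proteins, 5 rose and 5 fell, 3 and 10, 10 and 5, and 10 and 8. Ccn5 and Ccn4, relatives of Ccn2, fell in all 4 comparisons, Ccn5 by 3.20, 2.68, 3.06 and 3.16 and Ccn4 by 3.02, 2.12, 2.88 and 1.98, while Ccn2 itself rose in 3. Nid2, the second nidogen gene, rose by 0.89 in the wild type at 4 h. Col27a1, a fibrillar collagen gene outside the list of 49, fell at 8 h by 1.24 in the wild type and 1.21 in the knockout.

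Between genotypes, the largest difference among these lists was that of Fbln2, a fibulin gene, which was higher in the knockout by 2.22 and 2.07 on saline and by 2.23 and 2.60 on dexamethasone (adjusted p = 1.61e-07, 3.43e-07, 1.69e-08 and 3.74e-09). In RefSeq, Fbln2 and Klf15 both lie on chromosome 6, with 5 protein-coding genes between them.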

How the data were processed

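Each array's spot intensity values are those the authors deposited, extracted with Agilent's Feature Extraction (per the file headers version 10.7.3.1, and 10.6 per the submitters' processing notes), background-subtracted within the array. The deposited series table holds log2 values of the same arrays, with a normalization not given in the sources used here. From the processed signal, log2 values were taken relative to each array's 75th percentile, without control spots and outlier spots. Between 75.5% and 88.5% of 43379 spots per array were well above background and none was saturated, and precision is limited by the number of arrays. A probe was kept if 3 or more arrays of 1 group showed it well above background (33929 of 41174 probes). Probes were named by accession through RefSeq (24844 with 1 gene, 16330 with none), and a gene's brightest kept probe was used, 432 of 15348 genes having a missing value. The 8 groups were fitted together with limma 3.58.1 (R 4.3.3), with Benjamini-Hochberg adjustment over all genes in each of 13 comparisons, and the code was tested on simulated data. Arrays lay on 8 slides scanned on 1 day. The alternatives were slide as a fixed or random block or within slides, quantile normalization, normexp background correction (offset 50, on median signals), other filters and probe choices, the deposited table, a trended and robust variance, the bright to dim probe ratio as a covariate, each array left out, and median scaling, which was added after seeing the data. Members and lists were chosen with earlier results of these data known. Members described in full were, in each treatment or genotype comparison, up to 6 called with the largest rise and 6 with the largest fall, up to 4 with the lowest p in each difference of effects, and those called alike in all 4 comparisons of a kind. Of each further list up to 3 genes with the lowest p per comparison were eligible. Other members named were chosen after their values were seen.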

Additional observations from a re-analysis of the deposited data

Results flagged for a closer look

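Among 28 members in groups of 4 arrays, 8 of 140 groups held an array far from the other 3 by Dixon's test at 95%, where chance gives about 1 in 20. For knockout dexamethasone 8 h replicate 61, Eln stood at 1.96 (others 0.31 to 0.54) and Lama1 at -7.76 (others -9.02 to -8.85, below background). On knockout saline 8 h arrays, Col6a1 stood at 3.20 on replicate 45 (others 2.98 to 3.01), Loxl1 at 1.91 on replicate 47 (others 2.15 to 2.18) and Dcn at 4.55 on replicate 48 (others 4.22 to 4.27). On wild-type dexamethasone 4 h arrays, Loxl1 stood at 2.15 on replicate 50 (others 1.36 to 1.48) and Col4a5 at -0.24 on replicate 52 (others -0.77 to -0.73). Mmp2 stood at 1.57 on knockout dexamethasone 4 h replicate 59 (others 1.02 to 1.10).

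Of 11 fibroblast markers, 3 were the highest of all arrays on replicate 61: Pi16 at 1.49 (0.44 to 0.75 in the rest of its group, -0.38 to 1.29 elsewhere), Dpt at 2.90 (2.14 to 2.57 and 1.90 to 2.59) and Scara5 at -0.10 (-0.65 to -0.22 and -1.99 to -0.43). Another 3, Fgf10 at -1.16, Meox2 at 1.08 and Tbx4 at -7.07, were the lowest of their group there.

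The effect of dexamethasone differed between genotypes at 4 h by limma in Col5a1 (0.65 ± 0.15 SE, adjusted p = 0.00792), Col18a1 (0.58 ± 0.17, 0.0268), Hspg2 (0.75 ± 0.20, 0.016) and Postn (0.42 ± 0.12, 0.0257). At 8 h it differed in Hspg2 (0.69 ± 0.21, 0.0495) and Timp3 (0.37 ± 0.10, 0.0382). It differed between times in the wild type in Col13a1 (-0.50 ± 0.12, 0.013), and in the knockout in Col5a1 (-0.54 ± 0.15, 0.0423), Col13a1 (-0.63 ± 0.12, 0.00346), Tnc (-1.03 ± 0.26, 0.0297) and Postn (-0.47 ± 0.12, 0.0394). The Postn difference at 4 h was not called without wild-type saline replicate 36 (0.36), knockout saline replicate 41 (0.31) or knockout dexamethasone replicate 58 (0.38).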

How the results depend on the processing

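Of 82 called differences of named members, 80 kept their direction and side of the threshold with slide as a random block, 70 with slide as a fixed block, 68 with quantile normalization, 65 with normexp, 65 in the deposited table, 71 with median scaling (added after seeing the data) and 54 with the bright to dim ratio as a covariate. These tallies include the falls of Lama1, which passed the filter only where it was high. Within single slides none changed direction, and 53 of 81 moved by less than the spread between arrays. These 81 are pairs of a gene and a slide that held both groups, not 81 of the 82 differences. The genotype differences on saline at 4 h and on dexamethasone at 8 h could not be checked this way. Nor could the differences of effects or saline over time. Reversals came from other probes of a gene: Col5a1 on saline at 4 h read 0.011 with the mean of its probes and 0.54 with the dimmest, its difference of effects -0.53 at 4 h and 0.29 between times in the knockout, and Fn1 on saline at 8 h -0.60. No cause was tested.

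Counts of called members moved as follows. In the knockout at 4 h of dexamethasone 17 became 11 with normexp, 11 in the deposited table and 8 with the covariate. Between genotypes on saline at 4 h 8 became 0 with the covariate and 13 with median scaling. On saline at 8 h 5 became 13 with fixed slides, 18 with random slides, 8 with quantile normalization, 8 with normexp, 2 with the covariate and 1 with median scaling. Over all genes 788 higher and 1209 lower became 638 and 1636 with the covariate. On dexamethasone at 4 h 0 became 1 with slide as either block. Over all genes 43 higher and 95 lower became 49 and 115 with fixed and 115 and 150 with random slides. On dexamethasone at 8 h 5 became 3 with fixed slides, 3 with quantile normalization and 2 with normexp or in the deposited table.

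For differences of effects between genotypes at 4 h, 4 became 2 with quantile normalization, normexp, the mean of probes or the deposited table, 0 with the covariate and 7 with median scaling. Over all genes 2019 above and 479 below 0 became 813 and 323 with quantile normalization and 294 and 272 with normexp. They became 1109 and 408 with the mean of probes and 277 and 253 in the deposited table. With the covariate they became 1 and 1, and with median scaling 2897 and 241. At 8 h, 2 became 5 with random slides, 4 with probes above background on all arrays or a trended and robust variance, 1 with no filter or the mean of probes, and 0 with quantile normalization, normexp, the deposited table, the covariate or median scaling. Between times in the wild type, 1 became 8 with fixed and 6 with random slides, 3 with the trended and robust variance, 2 with normexp, the stricter filter, the deposited table or the covariate, and 0 with median scaling. Over all genes 436 above and 478 below 0 became 688 and 824 with fixed and 830 and 878 with random slides. They became 351 and 363 with normexp and 336 and 361 in the deposited table. With the covariate they became 430 and 518, and with median scaling 406 and 322. In the knockout, 4 became 1 with quantile normalization, normexp, the dimmest probe or the deposited table, and 2 with the mean of probes, the covariate or median scaling. Over all genes 186 above and 283 below 0 became 159 and 255 with quantile normalization and 163 and 212 with normexp. They became 137 and 189 with the dimmest probe and 150 and 196 in the deposited table. With the mean of probes they became 182 and 256, with the covariate 219 and 277, and with median scaling 130 and 213. For saline over time, 7 became 4 with the dimmest probe, where over all genes 313 higher and 179 lower became 229 and 136.

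Leaving out each array in turn gave 13 to 16 and 12 to 18 members in the wild type at 4 and 8 h of dexamethasone, and 14 to 19 and 15 to 19 in the knockout. Between genotypes it gave 5 to 12 and 1 to 10 on saline, 0 to 1 and 2 to 9 on dexamethasone. Differences of effects gave 2 to 9 and 0 to 4 between genotypes at 4 and 8 h, and 1 to 5 and 1 to 4 between times in the wild type and the knockout, and saline over time 6 to 8. The share of all genes called in these fits is given, where at all, only for those without replicate 61. The ranges are therefore no result about the matrix genes. Over all genes, higher against lower calls in the knockout at 4 h went from 3793 and 2727 to 2731 and 2959 with normexp, and on saline at 4 h from 918 and 2854 to 644 and 1023. On saline at 8 h they went from 788 and 1209 to 1384 and 2614 with fixed slides and 1397 and 2550 with random slides. For differences of effects between genotypes at 4 h they went from 2019 and 479 to 813 and 323 with quantile normalization. No paired analysis was possible because the groups share no replicate numbers. Slide was a block only in the alternatives, so the SEs and p-values of the results take no account of it unless a slide block is named. The correlation between arrays of the same slide was estimated at 0.41 over all genes.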
